A study of Oncorhynchus mykiss with 18 samples.

Results

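The H3K4me3 and H3K36me3 peaks of the testis of 1 rainbow trout, TAC-1, which carries the Prdm9 alleles 1 and 5 (Prdm9 1/5), were set against each other. All peaks of both TAC-1 lists were taken as the authors deposited them, 153665 for H3K4me3 and 162044 for H3K36me3, or 315709 of the 409541 regions in the 7 lists of the series. A peak was called dual-marked where it had at least 1 bp in common with a peak of the other mark, and single-marked otherwise. These shares were described by quartile of width and of score, by chromosome and by decile of chromosome length, and dual-marked and single-marked peaks were then compared at genes, at recombination hotspots and at the peaks of another individual.

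The series measured the recombinase DMC1 on single-stranded DNA in testes of 3 trout, and both histone marks in testes of 2 of them. All were of the strain INRA-AUT. Testes were at maturation stage III in TAC-1 (Prdm9 1/5) and in TAC-3 (Prdm9 2/6), while those of RT-52, with the alleles 1 and 2, had reached stage IV. The antibodies were rabbit anti-H3K4me3 (Abcam) and rabbit anti-H3K36me3 (Diagenode), with 2 replicates per mark and individual. The labels list 1 input library for TAC-1 and 2 for TAC-3. Each genotype was represented by 1 individual and the testis was not sorted, so the genotype, the individual and the mixture of cells cannot be told apart.

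H3K4me3 is the trimethylation of lysine 4 of histone H3 and marks active promoters and other open elements. H3K36me3 is deposited along the body of transcribed genes. PRDM9 is a meiotic methyltransferase with an array of zinc fingers that binds DNA, and in mammals it places both marks on the nucleosomes around its binding sites, where SPO11 then cuts DNA and DMC1 loads on the ends. The extent to which the marks occupy the same sites is therefore of interest in a testis that holds spermatocytes.

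At genes, both TAC-1 lists leaned toward the position known for their marks, but less than the TAC-3 lists. Of the H3K4me3 peaks on chromosomes, 28370 of 151034 (18.8%) lay within 1 kb of a gene boundary, a zone of 7.74% of chromosome length. The share was 15401 of 159722 for H3K36me3 peaks (9.64%), whereas 64.0% of these lay inside genes, which make up 53.3% of the length. In TAC-3, 47.7% of H3K4me3 peaks were at a boundary, and 80.1% of H3K36me3 peaks were inside genes and 15.1% at a boundary. Peaks were placed by at least 1 bp in common, so these shares are not strictly comparable with shares of length. They are also not strictly comparable between the individuals, because the TAC-3 lists are shorter and hold wider peaks. A peak's score averages the MACS2 scores of the calls merged into it, and served only to rank peaks of the same list. Neither read numbers nor values per replicate are in the lists, so the intervals given are 95% Wilson intervals over peaks and cover counting error only.

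In TAC-1 most peaks of either mark met the other. Of the 153665 H3K4me3 peaks, 102057 met an H3K36me3 peak (66.4%, 95% interval 66.2% to 66.7%). Of the 162044 H3K36me3 peaks, 101112 met an H3K4me3 peak (62.4%, 62.2% to 62.6%). The sequence common to both marks amounted to 60.9 Mb, which was 56.7% of the bases under H3K4me3 peaks and 48.1% of those under H3K36me3 peaks. The shares also depend on the length of the partner list, since leaving out partner peaks can only lower them. When only partner peaks with a score above the median of their list were kept, 41.2% of H3K4me3 peaks and 33.2% of H3K36me3 peaks met one. Whether the weaker partner peaks add more than their number was not tested.

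In TAC-3 the same measure gave much lower values, 8.64% of 50548 H3K4me3 peaks (8.40% to 8.89%) and 10.8% of 40535 H3K36me3 peaks (10.5% to 11.1%). The TAC-1 lists are longer. When they were reduced to the highest scores and to the number of TAC-3 peaks, a choice made after the data were seen, 40.5% of H3K4me3 peaks and 50.4% of H3K36me3 peaks of TAC-1 met the other mark. The reduced lists hold only high scores, so they are not equivalent to the TAC-3 lists. Median widths were 757 bp (H3K4me3) and 976 bp (H3K36me3) in TAC-3, against 367 and 368 bp in the full TAC-1 lists. The part of list length in the difference was not tested. The difference between the individuals had no test, as each mark had 1 list per individual.

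Where the marks met, they mostly covered the same interval. The dual-marked peaks formed 102925 pairs, and in 97794 of them each peak had only that partner. The midpoints of a pair were 22 bp apart in the median (quartiles 8 and 156 bp), and 71.6% of pairs had midpoints within 100 bp of each other. In TAC-3 the median was 224 bp, and 33.5% of 4392 pairs were within 100 bp. In TAC-1 the overlap of a pair was 329 bp long in the median. Taken over peaks, the median part covered by all partners was 99.1% of a dual-marked H3K4me3 peak and 93.7% of a dual-marked H3K36me3 peak. The H3K4me3 peak lay wholly within its partner in 43.8% of pairs, and the H3K36me3 peak lay wholly within its partner in 24.2%. Across pairs, which share their sequence, the widths of the marks followed each other with a Spearman rho of 0.610 and the scores with a rho of 0.511. The labels list 1 input library for TAC-1, and the input used for each replicate is not given in the sources used here. The part that a common input may have in the shares of dual-marked peaks and in their near-identical intervals was not tested.

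Few single-marked peaks had a peak of the other mark within 1 kb. The nearest H3K36me3 peak was 5110 bp away in the median from a single-marked H3K4me3 peak, and the nearest H3K4me3 peak 4868 bp from a single-marked H3K36me3 peak. Within 1 kb there was a partner for 743 of 51540 single-marked H3K4me3 peaks and for 672 of 60926 single-marked H3K36me3 peaks. Peaks of 1 list are never closer than 1001 bp, because the authors merged nearer ones. A partner that meets another peak of the first list is therefore mostly kept away from the single-marked peak. How much this merging lowers the counts within 1 kb was not tested.

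The marks differed in which of their peaks met the other. H3K36me3 peaks were dual-marked more often the higher their score, with 39.7%, 56.6%, 70.3% and 83.0% in the quartiles from lowest to highest. H3K4me3 peaks were dual-marked most often at middle scores, with 55.9%, 69.8% and 75.8% in the lower 3 quartiles and 64.1% in the highest (63.6% to 64.6%). In twentieths of the score, the H3K4me3 share lay between 76.1% and 76.4% in the twelfth to the fifteenth, and was 42.2% (41.1% to 43.3%) in the last, with scores of 1380 and above. The H3K36me3 share was 29.4% (28.4% to 30.4%) in the first twentieth and 90.4% (89.7% to 91.0%) in the last. The strongest H3K36me3 peaks thus nearly always had H3K4me3, whereas the strongest H3K4me3 peaks lacked H3K36me3 more often than not.

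**Figure D1:**
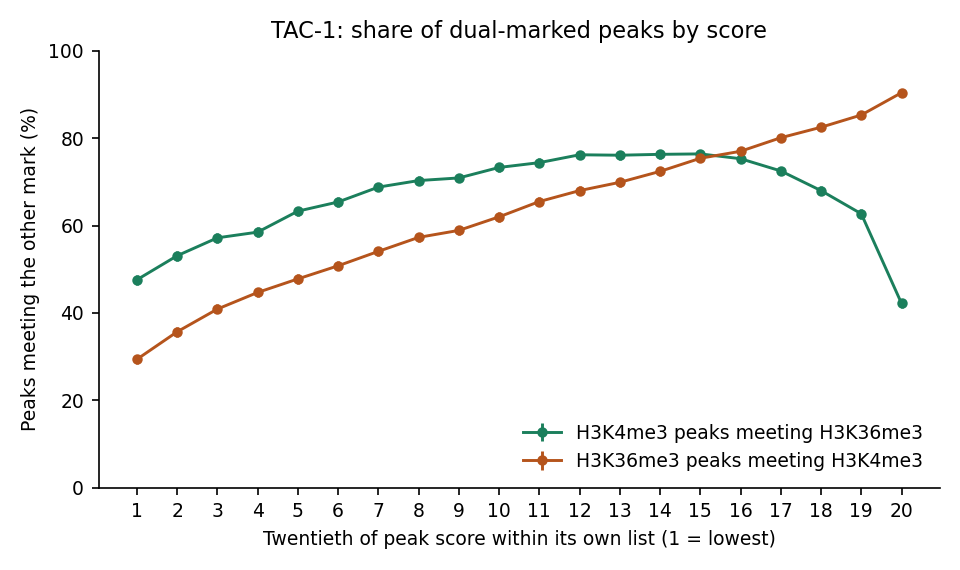
Share of TAC-1 peaks that meet the other mark (y axis, per cent) in twentieths of the score of each list, from lowest to highest (x axis). Points are shares and bars 95% Wilson intervals over peaks. The H3K36me3 share climbs to 90.4%, whereas the H3K4me3 share levels near 76.4% and is 42.2% in the last twentieth.

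The width of the peaks gave a different order. From the narrowest to the widest quartile, the share of dual-marked peaks was 51.6%, 76.1%, 70.8% and 67.3% for H3K4me3. It was 36.8%, 67.3%, 74.7% and 71.2% for H3K36me3. In both lists the narrowest quartile, up to 216 bp for H3K4me3 and up to 225 bp for H3K36me3, stood below the others. Width and score rise together (Spearman rho 0.476 for H3K4me3 and 0.471 for H3K36me3), so they were also crossed. Among H3K4me3 peaks of the second width quartile the share went up to 83.6% in the third score quartile. It was 77.1% in the highest score quartile of that width, but 62.1% and 62.2% in the highest score quartile of the third and the fourth width quartile. The low share of strong H3K4me3 peaks was thus that of strong peaks wider than 367 bp, together with the few strong and narrow ones (42.8% of 1614 peaks). H3K36me3 peaks showed an increase with score in each of the 4 width quartiles.

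**Figure D2:**
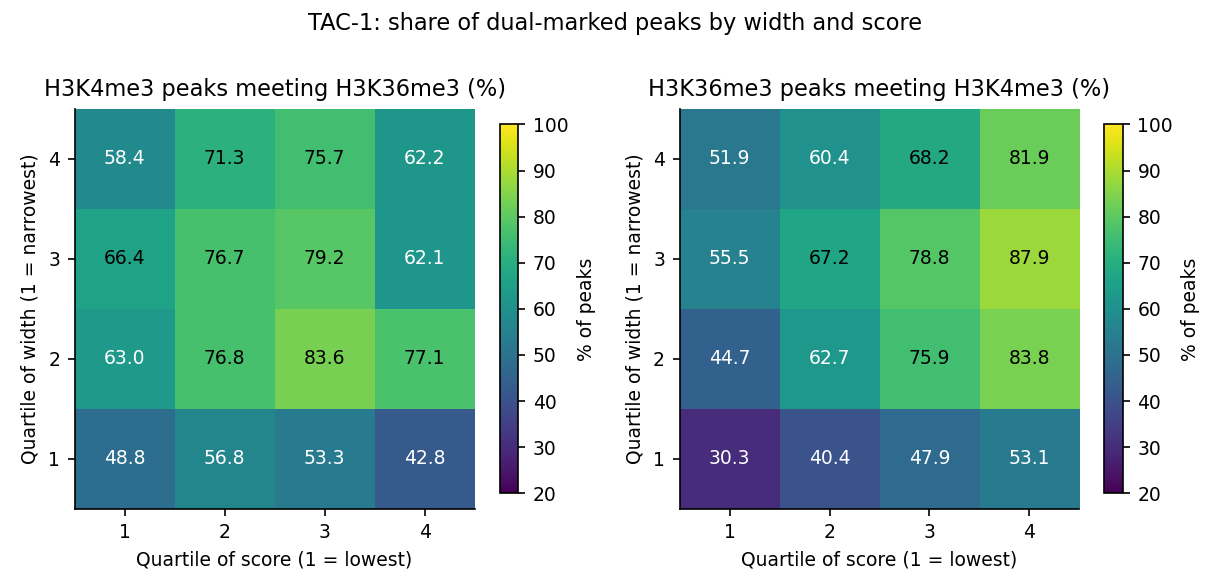
Share of TAC-1 H3K4me3 peaks (left) and H3K36me3 peaks (right) that meet the other mark, as per cent in each cell, by quartile of width (y axis) and quartile of score (x axis). The highest H3K4me3 value is 83.6%, at middle width and score, and the highest H3K36me3 value is 87.9%, at the highest score.

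A wider peak has more bases that can meet another. When both marks were reduced to their central 200 bp, the difference between the widest and the narrowest quartile changed sign for H3K4me3, to -2.79 points in place of 15.7 points, and came to 4.79 points in place of 34.4 points for H3K36me3. The difference between the highest and lowest quartile of score was then 5.24 points in place of 8.19 points for H3K4me3 and 29.0 points in place of 43.3 points for H3K36me3. Peaks of up to 200 bp kept their own width, so the narrowest quartile could still hold fewer bases.

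The highest score of both lists belonged to the same site. It lay on chromosome 7 from 7575516 to 7575860, outside genes and 48613 bp from LOC110495388, with a score of 72767 for H3K4me3 and of 39300 for H3K36me3. The H3K36me3 peak there began at the same base and was 335 bp wide, against 345 bp for H3K4me3. The next 4 dual-marked H3K4me3 peaks by score differed from it in form. They lay at gene boundaries, at otud5a on chromosome 16 (score 38573), LOC110507071 on chromosome 27 (34179), LOC110492720 on chromosome 16 (32766) and LOC110504781 on chromosome 31 (31653). Their H3K4me3 peaks were 929 to 1498 bp wide and their H3K36me3 partners 276 to 634 bp wide, with scores of 241 to 615. All 5 sites also had an H3K4me3 peak and no H3K36me3 peak in TAC-3.

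Of the next 4 dual-marked H3K36me3 peaks by score, 3 lay inside genes and not within 1 kb of any gene boundary. These were LOC110490803 on chromosome 15 (score 10370, 48183 bp from the nearer end of this gene), LOC110490805 on chromosome 21 (9646, 26061 bp) and LOC110502424 on chromosome 23 (8645, 60489 bp). Boundaries of other genes may lie nearer. Their H3K4me3 partners had scores of 1866, 1247 and 638. In TAC-3 these 3 sites had an H3K36me3 peak and no H3K4me3 peak. The fourth lay on chromosome Y from 5879423 to 5880641, outside genes, with a score of 9544 for H3K36me3 and of 15580 for its H3K4me3 partner, and met a peak of each mark in TAC-3.

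The highest-scoring single-marked H3K4me3 peaks lay at the boundaries of LOC110503671 on chromosome 24 (28530), LOC110495050 on chromosome 17 (24269) and LOC110492917 on chromosome 16 (24145), and each met an H3K4me3 peak of TAC-3. The highest-scoring single-marked H3K36me3 peaks were also within 1 kb of a gene boundary. They lay inside LOC118936687 on chromosome 1 (7766), 5 bp from LOC110517345 on chromosome 12 (6730) and inside LOC110531486 on chromosome 9 (4315). The first and the third were 10216 and 15190 bp from the ends of these genes, and the boundary near each was that of another gene in the table. The first and the third of them met an H3K36me3 peak of TAC-3, and the second, which was 150 bp wide, met no TAC-3 peak.

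The widest peaks also differed between the marks. The widest H3K36me3 peak, 27393 bp, lay inside huwe1 on chromosome 16, which encodes a ubiquitin ligase, and met 6 H3K4me3 peaks. The second, 19603 bp inside LOC110534405 on chromosome 10, also met 6, and the third, 19385 bp at LOC110507678 on chromosome 27, met 3. The widest H3K4me3 peak on a chromosome, 24205 bp, lay on chromosome 18 outside genes, with csmd1a as the nearest gene at 227127 bp, and met 3 H3K36me3 peaks, the longest overlap being with one of 10216 bp. The next were 20219 bp at LOC110497474 on chromosome 19, with 2 partners, and 15905 bp on chromosome 14, 1860 bp from LOC118938768, with 1. All 3 met an H3K4me3 peak in TAC-3, and the 3 widest H3K36me3 peaks each met an H3K36me3 peak in TAC-3.

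The shares varied little between the 32 chromosomes. For H3K4me3 they lay between 62.0% (chromosome 13, 60.6% to 63.4%) and 69.4% (chromosome 27, 67.9% to 70.9%), with a median of 66.6% and an SD of 1.67 points over chromosomes. For H3K36me3 they lay between 59.3% (chromosome 19, 57.9% to 60.7%) and 66.4% (chromosome 31, 64.7% to 68.1%), with a median of 62.5% and an SD of 1.61 points. The H3K4me3 share was the higher one on 29 of the 32 chromosomes, which mostly follows from the length of the lists. On each chromosome both lists held nearly the same number of dual-marked peaks. On chromosome 1, for example, these were 4293 of 6320 H3K4me3 peaks and 4259 of 6953 H3K36me3 peaks. Chromosomes with a high H3K4me3 share were not those with a high H3K36me3 share (Spearman rho -0.0854 over 32 chromosomes, as a description). Chromosome Y had 65.2% (63.6% to 66.7%) for H3K4me3 and 64.9% (63.3% to 66.4%) for H3K36me3. On unplaced sequences the shares were 56.5% of 2631 H3K4me3 peaks and 64.5% of 2322 H3K36me3 peaks.

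Along the chromosomes, dual-marked peaks were sparser toward the ends. Per Mb there were 36.1 dual-marked H3K4me3 peaks in the first decile of chromosome length, 51.3 in the sixth and 34.2 in the last, whereas single-marked H3K4me3 peaks stayed between 19.5 and 24.4 per Mb. The share of dual-marked H3K4me3 peaks was accordingly 62.4% in the first decile, 68.4% in the fourth and the fifth and 61.9% in the last. Over the 2 outer deciles it was 62.1% (61.5% to 62.7%), and in the inner deciles, the fifth and the sixth, 68.1% (67.6% to 68.6%). For H3K36me3, single-marked peaks too were sparser at the ends, 19.9 per Mb in the first decile and 22.0 in the last, against 30.4 in the sixth. The H3K36me3 share differed less, with 62.6% (62.0% to 63.2%) in the outer and 63.3% (62.8% to 63.8%) in the inner deciles, and ranged from 60.7% in the last to 64.4% in the first decile. Peak numbers of both marks fell toward the ends, with 56.6 and 56.0 peaks per Mb in the outer deciles, against 74.9 and 79.9 in the inner deciles for H3K4me3 and H3K36me3.

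**Figure D3:**
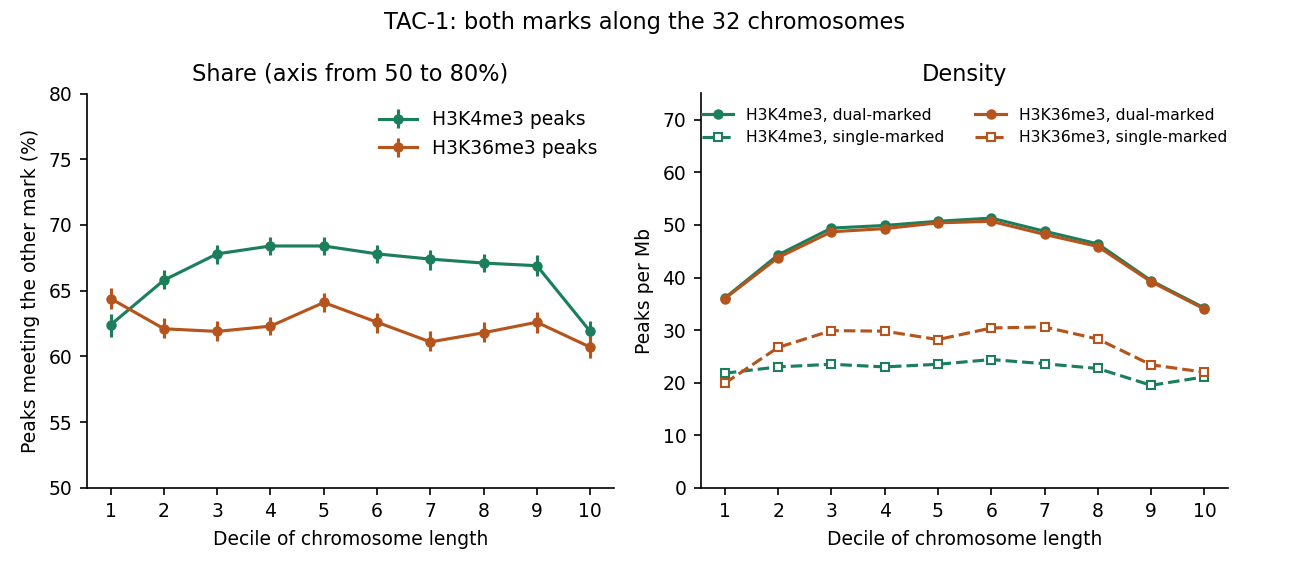
Left, share of TAC-1 peaks that meet the other mark (y axis, 50 to 80 per cent, bars are 95% Wilson intervals over peaks) in deciles of chromosome length (x axis). Right, number of dual-marked (filled, solid) and single-marked (open, dashed) peaks per Mb. The H3K4me3 share is 62.4% and 61.9% in the end deciles and 68.4% at its highest, and single-marked H3K4me3 peaks stay between 19.5 and 24.4 per Mb throughout.

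The position of peaks relative to genes differed between dual-marked and single-marked peaks. Dual-marked peaks of both lists, which are largely the same sites, lay at a gene boundary in 10.8% (H3K4me3) and 10.1% (H3K36me3) of cases, inside a gene in 57.5% and 57.6%, and outside genes in 31.6% and 32.3%. The shares of chromosome length are 7.74% for boundaries, 53.3% for the inside of genes and 39.0% for the rest. These are shares of bases, whereas 1 bp in common placed a peak at a boundary, or else inside a gene. The 2 kinds of share are therefore not strictly comparable. Single-marked peaks leaned more toward the position that each mark is known for. Single-marked H3K4me3 peaks were at a boundary in 17471 of 50464 cases (34.6%, 34.2% to 35.0%), against 32.6% inside and 32.8% outside genes. For H3K4me3 the lean was confined to single-marked peaks that also met an H3K4me3 peak of TAC-3 (70.3% at a boundary). Those that met none, 29808 peaks, were at a boundary in 8.43% of cases. For dual-marked H3K4me3 peaks that met none it was 8.38%. Single-marked H3K36me3 peaks were inside a gene in 44876 of 60108 cases (74.7%), and only 8.87% were at a boundary. The table of genes gives no strand, so a boundary may be the start or the end of a gene. With boundaries of 500 bp or 2 kb, the share of dual-marked H3K4me3 peaks at a boundary was 6.95% or 17.7%, and that of single-marked ones 30.0% or 40.5%.

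**Figure D4:**
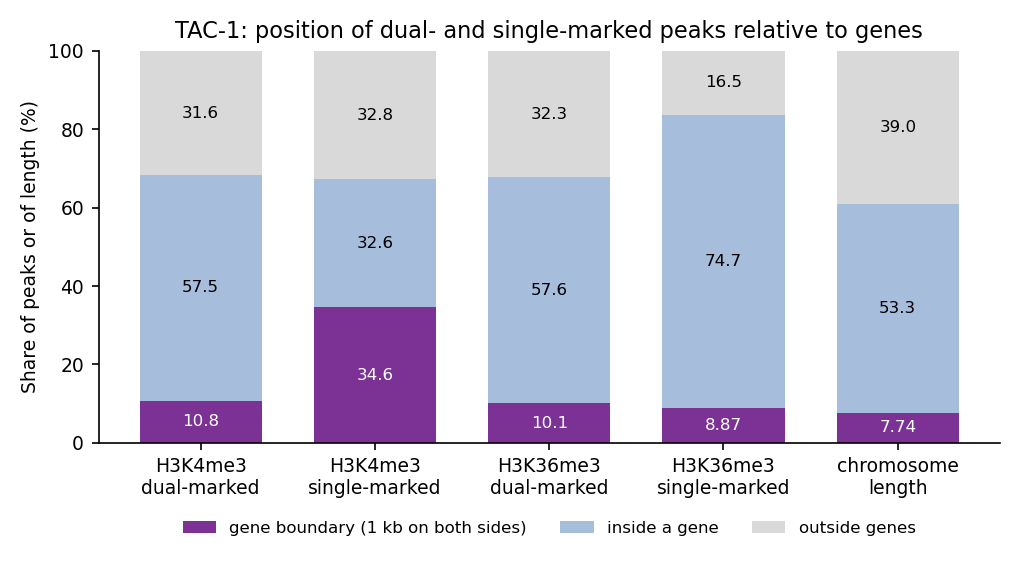
Share of TAC-1 peaks (y axis, per cent) within 1 kb of a gene boundary, inside a gene and outside genes, for dual-marked and single-marked peaks of each mark, and for chromosome length. Dual-marked peaks of both lists look alike (10.8% and 10.1% at boundaries), whereas 34.6% of single-marked H3K4me3 peaks are at a boundary and 74.7% of single-marked H3K36me3 peaks are inside a gene.

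Seen from the genes, an H3K4me3 peak met H3K36me3 in 38.4% (37.9% to 39.0%) of cases at a boundary, in 77.8% (77.5% to 78.1%) inside a gene and in 65.8% (65.4% to 66.2%) outside genes. An H3K36me3 peak met H3K4me3 in 65.4% (64.6% to 66.1%) of cases at a boundary, in 56.1% (55.8% to 56.4%) inside a gene and in 76.5% (76.1% to 76.9%) outside. Strong H3K4me3 peaks were dual-marked least often at boundaries. In the highest score quartile, 28.7% of 14226 H3K4me3 peaks at boundaries were dual-marked, against 84.6% of 12643 inside and 87.1% of 10605 outside genes. In the last twentieth of the score, the shares were 20.1% (19.0% to 21.2%) of 4707 peaks at boundaries, 72.1% (69.8% to 74.4%) of 1479 inside and 86.0% (84.0% to 87.8%) of 1265 outside genes, so the strongest peaks inside genes also stood below the 84.6% of their quartile. In the same twentieth, 86.5% of the 4351 single-marked H3K4me3 peaks on chromosomes were at a boundary, and 30.5% of the 3100 dual-marked ones. Among H3K36me3 peaks of the highest score quartile, 97.2% (96.8% to 97.5%) of 7975 peaks outside genes were dual-marked, and 79.4% (78.9% to 79.8%) of 26801 inside genes.

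Protein-coding genes of at least 10000 bp were also divided into 5 parts from a boundary to the middle, with the 2 sides of a gene added up. Of the single-marked H3K4me3 peaks in these 23624 genes, 47.6% lay in the outermost part and 12.3% to 13.9% in each of the others. Dual-marked H3K4me3 peaks were nearly even, with 22.1% in the outermost part and 18.8% to 20.6% in the others. In the outermost part 52.1% of H3K4me3 peaks were dual-marked, and 77.4% to 78.3% in the other 4. Single-marked H3K36me3 peaks were least frequent in the outermost part, with 344.8 per 1000 genes, against 386.4 to 398.6 in the others.

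Of the 40693 protein-coding genes on chromosomes, 25564 (62.8%) had H3K4me3 at a boundary, 29590 (72.7%) had H3K36me3 in the body and 20807 (51.1%) had both, while 6346 (15.6%) had neither. A gene with H3K4me3 at a boundary had H3K36me3 in its body in 81.4% of cases, and a gene without it in 58.1%. These criteria are not independent, because the same dual-marked site can lie at a boundary and in the body and count for both marks. A dual-marked H3K4me3 peak was at a boundary of 25.4% of protein-coding genes. How much such sites add to this difference, and to the counts of genes with both marks, was not tested. Gene length moved the shares of genes with these marks. From the shortest to the longest quartile of genes, H3K36me3 in the body was found in 39.4%, 68.6%, 85.9% and 97.0%. H3K4me3 at a boundary was found in 60.0%, 64.9%, 64.8% and 61.6%. A longer body has more bases that can meet a peak, so the H3K36me3 shares do not show a denser mark in long genes. Per 100 kb of gene, H3K36me3 peaks numbered 13.5 in the shortest quartile and 8.10 in the longest. With peaks above the median score of both lists, 35.0% of genes had both marks.

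The gene lists below were chosen with earlier results of these data known, and are read against 62.8% of all protein-coding genes for H3K4me3, 72.7% for H3K36me3 and 51.1% for both. Of 69 meiosis genes, 30 were matched by symbol. H3K4me3 was at a boundary of 27, H3K36me3 in the body of 28, and both marks on 25 (83.3%, 66.4% to 92.7%). At 22 of the 30 (73.3%, 55.6% to 85.8%) a single-marked H3K4me3 peak was at a boundary, against 44.4% of all protein-coding genes, and at 21 (70.0%, 52.1% to 83.3%) a single-marked H3K36me3 peak was in the body, against 45.5%. The highest H3K4me3 score at a boundary was that of smc1b (9533), a meiotic cohesin subunit, whose H3K4me3 peak there was dual-marked and whose highest H3K36me3 score in the body was 1008. It was followed by mei4 (4260 for H3K4me3 and 927 for H3K36me3), needed for double-strand breaks in mouse, and rec8b (3175 and 987.8), a cohesin subunit. Next were sycp1 (3156 and 1037), which forms the transverse filaments of the synaptonemal complex, mlh3 (1524 and 616.5), which acts in crossover resolution, and trip13 (1363 and 1009), an ATPase that remodels HORMA proteins. At mei4, sycp1, mlh3 and trip13 the H3K4me3 peaks at the boundary were single-marked, and at rec8b dual-marked. The recombinase gene dmc1 had an H3K4me3 score of 1302 and an H3K36me3 score of 116, on separate peaks.

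The spermatid and flagellum list held genes of the sperm tail and of spermatids. Of 25 matched genes 23 had H3K4me3, 23 had H3K36me3 and 21 had both (84.0%, 65.3% to 93.6%). Of protein-coding genes of 13040 to 32326 bp, 85.9% had H3K36me3 and 60.2% both, and the median length of the 25 was 19315 bp. The 6 highest H3K4me3 scores were those of rsph9 (8271), a radial spoke component, tekt4 (6657), a tektin, drc1 (5014), part of the dynein regulatory complex, iqcg (4256), cfap54 (3575) and spag17 (3554), the last 2 being parts of the central apparatus of the axoneme. The peaks at the boundaries of these 6 were single-marked, and all 6 had H3K36me3 in the body, with scores from 192 at rsph9 to 2212 at spag17. Within cfap54, 7 of 8 H3K4me3 peaks met 1 or more of 24 H3K36me3 peaks.

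Of 15 matched germ line genes, 13 had H3K4me3, 13 had H3K36me3 (86.7%) and 11 had both (73.3%, 48.0% to 89.1%). Their median length was 24803 bp, and of protein-coding genes of 13040 to 32326 bp, 85.9% had H3K36me3 and 60.2% both. The highest H3K4me3 scores at boundaries were those of nanos2 (1485), an RNA-binding protein of spermatogonia, dazl (1305), an RNA-binding protein of germ cells, and the tudor domain genes tdrd1 (1293), tdrd6 (607), tdrd5 (597.3) and tdrd15 (531.3). No H3K36me3 peak was in the body of nanos2, a gene of 728 bp, while tdrd1 had 16, with a highest score of 1037. Of 16 matched housekeeping genes, 13 had H3K4me3, 14 had H3K36me3 and 13 had both (81.2%, 57.0% to 93.4%). The ribosomal protein gene rps3 (H3K4me3 score 2988), the proteasome subunit psmd1 (2312) and polr2a, the large subunit of RNA polymerase II (1124), had single-marked H3K4me3 at a boundary. At the chaperone hsp90ab1 (2976) and the TATA-binding protein tbp (1487) it was dual-marked.

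The other 2 lists name genes of other cells. Of 16 matched genes of somatic cells of the testis, 10 had H3K4me3, 9 had H3K36me3 and 7 had both (43.8%, 23.1% to 66.8%), and 4 had neither. Single-marked H3K4me3 was at a boundary of 4 of the 16 (10.2% to 49.5%), an interval that holds the 44.4% of all genes. The H3K4me3 peaks of gata4 (7097), a transcription factor of Sertoli and Leydig cells, hsd11b2 (460), sox9 (445) and hsd3b1 (256) were dual-marked. Those of dmrt1 (4414) and of the steroidogenic cyp17a1 (1488) were single-marked. Of 13 matched genes of brain, muscle and blood, 10 had H3K4me3, 10 had H3K36me3 and 8 had both (61.5%, 35.5% to 82.3%). At 9 of the 13 (69.2%, 42.4% to 87.3%) a dual-marked H3K4me3 peak was at a boundary, against 25.4% of all protein-coding genes and 30.3% of those in the shortest quartile of length. The median length of the 13 was 3751 bp. Among the 9 were the neuronal factors neurod1 (740), neurod2 (616) and neurog1 (522.5), the neighbouring lymphocyte recombinase genes rag2 and rag1 (533 at each) and ptprc (492), a leukocyte phosphatase. Coordinates of rag2 end at 80727535 and those of rag1 begin at 80727903, so 1 peak may count for both genes. At 2 of the 13 (15.4%, 4.33% to 42.2%) a single-marked H3K4me3 peak was at a boundary, against 18049 of 40693 protein-coding genes (44.4%). The lists are short and their intervals wide. Many listed symbols were not matched and could not be examined. Matches were 13 of 50 for brain, muscle and blood, 16 of 32 for somatic cells of the testis and 16 of 40 for housekeeping. They were 25 of 42 for spermatid and flagellum and 15 of 24 for germ line.

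Dual-marked peaks of TAC-1 met a peak of the same mark in TAC-3 less often than single-marked peaks. Of all TAC-1 H3K4me3 peaks, 23.9% met an H3K4me3 peak of TAC-3 and 11.2% an H3K36me3 peak of TAC-3. Of all TAC-1 H3K36me3 peaks, 8.48% met an H3K4me3 peak of TAC-3 and 21.0% an H3K36me3 peak of TAC-3. An H3K4me3 peak of TAC-3 was met by 14952 of 102057 dual-marked H3K4me3 peaks (14.7%, 14.4% to 14.9%) and by 21800 of 51608 single-marked ones (42.2%, 41.8% to 42.7%). An H3K36me3 peak of TAC-3 was met by 16033 of 101112 dual-marked H3K36me3 peaks (15.9%, 15.6% to 16.1%) and by 17975 of 60932 single-marked ones (29.5%, 29.1% to 29.9%). No peak of either mark in TAC-3 was met by 72521 dual-marked H3K4me3 peaks (71.1% of them), against 29276 single-marked ones (56.7%) and 66.2% of all H3K4me3 peaks. For H3K36me3 it was 73532 dual-marked (72.7%) and 42629 single-marked peaks (70.0%), near the 71.7% of all H3K36me3 peaks. The dual-marked H3K4me3 peaks with no TAC-3 peak had a median width of 336 bp, and 8.17% were at gene boundaries.

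Peaks of high score were found again more often, and the classes also differed within quartiles of score. In the highest quartile of H3K4me3 score, 40.4% (39.8% to 41.0%) of dual-marked and 89.0% (88.5% to 89.6%) of single-marked peaks met an H3K4me3 peak of TAC-3. In the lowest quartile the values were 2.04% and 10.7%. In the highest quartile of H3K36me3 score, 35.1% (34.5% to 35.6%) of dual-marked and 76.1% (75.1% to 77.1%) of single-marked peaks met an H3K36me3 peak of TAC-3. Where single-marked H3K4me3 peaks met one of TAC-3, 70.3% were at a gene boundary. Where dual-marked H3K4me3 peaks met one, 25.3% were at a boundary, 44.0% were outside genes and their median width was 1176 bp.

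For the partner mark in TAC-3 the classes differed in the other direction, which largely follows from how they were defined. Of dual-marked H3K4me3 peaks, 16.2% met an H3K36me3 peak of TAC-3, and 1.37% of single-marked ones did. Of dual-marked H3K36me3 peaks, 12.8% (12.6% to 13.0%) met an H3K4me3 peak of TAC-3, and 1.30% (1.21% to 1.39%) of single-marked ones did. The classes rest on the partner mark in TAC-1, and sites with that mark in TAC-3 mostly had it in TAC-1 too. TAC-1 H3K4me3 peaks that met an H3K36me3 peak of TAC-3 were dual-marked in 95.9% of cases. For TAC-1 H3K36me3 peaks that met an H3K4me3 peak of TAC-3 it was 94.3%. The contrast is therefore not a separate result about the classes. The lists of TAC-3 are shorter and hold wider peaks, and how much of the missing counterparts this accounts for was not tested.

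**Figure D5:**
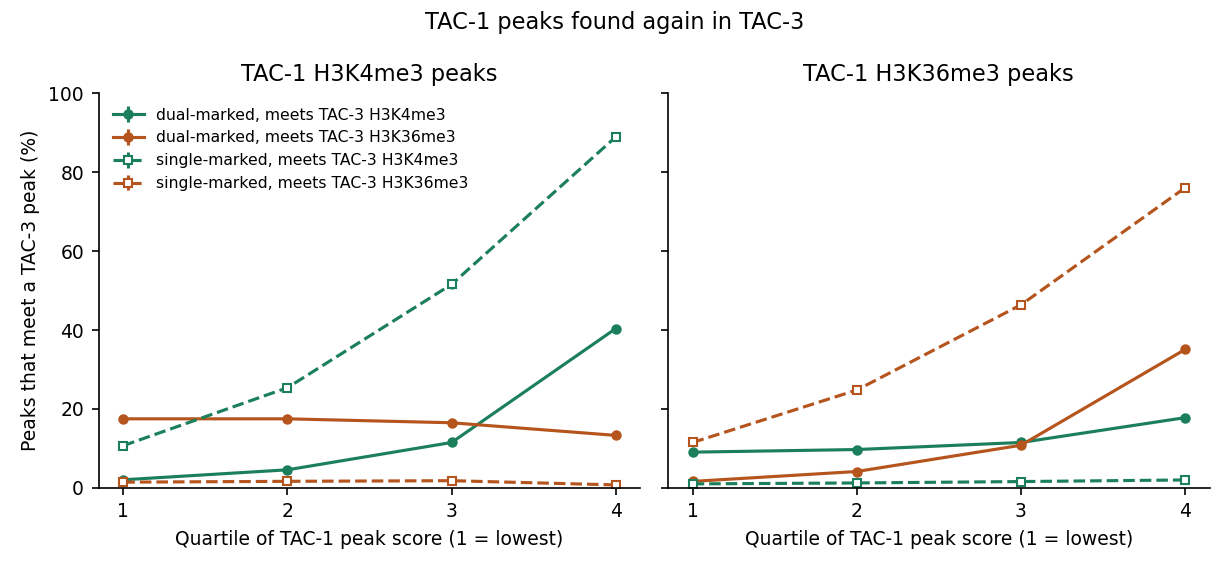
Share of TAC-1 H3K4me3 peaks (left) and H3K36me3 peaks (right) that meet a TAC-3 peak (y axis, per cent) by quartile of TAC-1 score (x axis), for dual-marked (filled, solid) and single-marked (open, dashed) peaks and for both TAC-3 marks; bars are 95% Wilson intervals over peaks. In the highest quartile 40.4% of dual-marked and 89.0% of single-marked H3K4me3 peaks meet TAC-3 H3K4me3, and 35.1% of dual-marked and 76.1% of single-marked H3K36me3 peaks meet TAC-3 H3K36me3.

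Hotspots of DMC1 took up few of the histone peaks. The central 400 bp of a TAC-1 hotspot was met by 221 of 153665 H3K4me3 peaks (0.144%) and by 129 of 162044 H3K36me3 peaks (0.0796%). Of the 221 H3K4me3 peaks, 161 were dual-marked (72.9%, 66.6% to 78.3%), against 66.4% (66.2% to 66.6%) of the peaks away from hotspots. Of the 129 H3K36me3 peaks, 122 were dual-marked (94.6%, 89.2% to 97.3%), against 62.4% (62.1% to 62.6%) away from hotspots. The difference for H3K4me3 depended on the overlap rule, and a reciprocal rule also drops pairs of very unequal width. With a reciprocal overlap of 25%, 127 of the 221 were dual-marked (57.5%, 50.9% to 63.8%), against 58.8% (58.6% to 59.1%) away from hotspots, whereas 108 of the 129 H3K36me3 peaks (83.7%, 76.4% to 89.1%) remained so, against 55.8% (55.5% to 56.0%). Histone peaks at hotspots were wide, with a median of 1071 bp for H3K4me3 and 1447 bp for H3K36me3, against 366 and 368 bp away from them. At the 1924 hotspots of RT-52, which shares the Prdm9 allele 1, 391 of 524 H3K4me3 peaks (74.6%, 70.7% to 78.2%) and 314 of 357 H3K36me3 peaks (88.0%, 84.2% to 90.9%) were dual-marked. With the reciprocal overlap these shares were 61.1% (56.8% to 65.1%) and 76.2% (71.5% to 80.3%). The list of TAC-3, which shares no allele, holds 209 hotspots, and 14 peaks of each mark were at them, of which 7 and 9 were dual-marked. The lists of hotspots differ in length, so these numbers of peaks are not comparable between individuals.

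By class, 1.58 per 1000 dual-marked H3K4me3 peaks and 1.16 per 1000 single-marked ones were at a TAC-1 hotspot (0.158%, 0.135% to 0.184%, and 0.116%, 0.0903% to 0.150%). For H3K36me3 there were 1.21 per 1000 dual-marked peaks (0.121%, 0.101% to 0.144%) and 0.115 per 1000 single-marked ones (0.0115%, 0.00557% to 0.0237%), a value that rests on 7 peaks. When the marks had to overlap by 25% of both peaks, the order turned for H3K4me3, with 0.141% of 90382 dual-marked and 0.149% of 63283 single-marked peaks at a TAC-1 hotspot, and for H3K36me3 the shares were 0.119% and 0.0293%. With the full length of hotspots, the single-marked H3K36me3 share was 0.0509% and the dual-marked one 0.221%.

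Seen from the 616 TAC-1 hotspots, 117 had both marks, 106 had H3K4me3 alone, 13 had H3K36me3 alone and 380 had neither. At each of the 117 the 2 marks also met each other. The median of the hotspot values that the authors deposited was 61.0 with both marks, 69.5 with H3K4me3 alone, 46.0 with H3K36me3 alone and 55.0 with neither. These are medians without a spread, and whether the classes differ in value was not tested. The paper holds that DMC1 peaks common to TAC-1 and TAC-3 may be artifacts, and such peaks were kept among the 616.

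The 5 hotspots with both marks and the highest values show the form of these sites. The first, on chromosome 18 from 69743806 to 69746241 (value 489), lay 17077 bp from LOC110496768, with an H3K4me3 peak of 1704 bp (score 1632) and an H3K36me3 peak of 1973 bp (1344). The second, on chromosome 24 from 38983746 to 38988273 (419), met psmd8, a proteasome gene, with peaks of 850 bp (803.5) and 867 bp (338). The third, on chromosome 22 from 9051421 to 9055420 (327), met gpr161a and had the widest peaks, 4621 bp for H3K4me3 (695.2) and 4777 bp for H3K36me3 (737.5). The fourth, on chromosome 26 from 6583156 to 6585449 (281), met LOC118944439, with peaks of 1003 bp (3182) and 960 bp (488). The fifth, on chromosome 18 from 68733507 to 68735542 (264), lay 34398 bp from hpcal4, with peaks of 1897 bp (1205) and 1798 bp (643.7). At each of these hotspots the peaks of the 2 marks were of similar width, the H3K36me3 peak being the wider one at 3 of the 5.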

How the data were processed

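ChIP-seq of H3K4me3 and H3K36me3 from testis of TAC-1 was analysed from the deposited peak lists, with the lists of TAC-3 and of DMC1 for comparison. Per the study's methods, the authors aligned the reads to USDA_OmykA_1.1 with BWA 0.7.17-r1188, called narrow peaks per replicate with MACS2 2.2.7.1 and an input, joined peaks within 1000 bp and retained those that both replicates had with a reciprocal overlap of 25%. For histone peaks, the deposited score averages the MACS2 scores of the joined calls. The value of a DMC1 peak is a score that the authors deposited after recentering the peaks, and its unit is not given in the lists. Merging widens peaks, and the filter leaves 1 list per mark, so that no error between replicates could be computed and no test across samples was made.

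Overlaps were computed with numpy 2.4.6 and pandas 2.3.3 in Python 3.11.15, Spearman correlations with SciPy 1.17.1 and figures with matplotlib 3.10.9. On simulated intervals, overlaps were checked with bedtools 2.31.1, which gave the same call for 3000 of 3000 at a minimum of 1 bp. Quartiles and twentieths were taken over each whole list, with equal values kept together. The length of a chromosome was the largest end of any peak in the 7 lists, and a peak was placed by its midpoint. Sequence identifiers were matched to the chromosomes of RefSeq's gene table for this assembly by the TAC-3 H3K4me3 peaks at gene boundaries, with at least 41.4% at the matched chromosome and at most 18.8% at any other. The table holds 72772 genes, of which 54080 were placed on the 32 chromosomes, and gives no strand. All placed genes were used for the position of peaks and 40693 protein-coding genes for counts of genes. Hotspots were reduced to their central 400 bp.

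The peaks named were the 5 highest-scoring dual-marked, the 3 highest-scoring single-marked and the 3 widest peaks of each list on chromosomes, the hotspots were the 5 with both marks and the highest value, and the listed genes were up to 6 per list in order of their H3K4me3 score at a boundary. The gene dmc1 was named outside this rule. Of the housekeeping genes, 1 that the rule takes is not reported here. The members, the gene lists and the tests were chosen with earlier results of these data known. Read numbers, the signal between peaks and DNA sequence were not used here. Positions are counted from 1.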

Additional observations from a re-analysis of the deposited data

How the results depend on the processing

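No paired analysis was possible because each mark had 1 list made from both replicates, and for the same reason no replicate was left out. Values were compared with their 95% interval over peaks, which is narrow. Of 82 alternative values for 23 results, 29 stayed within it, 52 moved beyond it and 1 changed sign. A minimum of 100 bp and leaving out chromosome Y moved none of the results they were applied to. Those were the shares of dual-marked peaks and their differences between quartiles or deciles, and not the results at genes and hotspots. A reciprocal overlap of 25% gave 58.8% of H3K4me3 and 55.8% of H3K36me3 peaks, central 200 bp 51.7% and 49.0%, scores above the median in both lists 56.1% and 53.0%, scores above the median in the partner list 41.2% and 33.2%, and lists reduced to the number of TAC-3 peaks, chosen after seeing the data, 40.5% and 50.4%. With the reciprocal overlap, the difference between extreme quartiles was 10.1 points for H3K4me3 score, 21.9 points for H3K36me3 width and 36.4 points for H3K36me3 score, and with central 200 bp it was 5.24, 4.79 and 29.0 points. The H3K4me3 width difference of 15.7 points came to -2.79 points with central 200 bp, which left peaks of up to 200 bp at their own width. The outer minus inner difference of -5.96 points for H3K4me3 was -4.79 points with the reciprocal overlap and -4.19 points with central 200 bp.

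For gene boundaries of 500 bp, 2 kb, or of protein-coding genes only, dual-marked H3K4me3 peaks were at a boundary in 6.95%, 17.7% and 9.78% and inside a gene in 60.4%, 52.7% and 56.5%. Single-marked H3K4me3 peaks were at a boundary in 30.0%, 40.5% and 32.9% and inside in 36%, 29.3% and 31.7%. Dual-marked H3K36me3 peaks were at a boundary in 5.49%, 18.3% and 9.02% and inside in 61.1%, 51.5% and 56.6%, and single-marked ones at a boundary in 4.68%, 16.2% and 7.83% and inside in 78.0%, 68.7% and 74.0%. With full-length hotspots, 0.217% of dual-marked and 0.184% of single-marked H3K4me3 peaks, and 0.221% and 0.0509% of H3K36me3 peaks, were at a TAC-1 hotspot, and single-marked H3K36me3 peaks came to 0.0293% when marks had to overlap reciprocally. Of the peaks at TAC-1 hotspots, 57.5% for H3K4me3 and 83.7% for H3K36me3 were then dual-marked, and 87.8% for H3K36me3 with full-length hotspots. Both marks were on 43.3% of protein-coding genes with boundaries of 500 bp and on 35.0% with scores above the median in both lists. The cause of these shifts was not tested.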
